A study of Oryctolagus cuniculus with 2 samples.

Results

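Bipolar cells of the rabbit retina were described here from 222 nuclei, out of 6542 in all, that the authors' annotation calls bipolar cells; they are the whole of the authors' cluster 6. Of these nuclei, 80 came from a library of CLRN1 knockout retina and 142 from a library of wild-type retina. The rabbits of both genotypes were 10 months old. From each animal a 5 mm punch of the visual streak, the horizontal band of densest cells in the rabbit retina, was frozen, and nuclei of 3 animals were mixed into 1 droplet library per genotype, with a target of 10000 nuclei. The labels give the knockout by gene only, without naming the allele or the exons removed. The animals were not analysed separately here, so an effect of genotype, of the pooled animals or of the library preparation cannot be told apart. No test was made, and the intervals printed are at 95% and cover counting error only. The rows and columns of the deposited count matrix carry numbers in place of names. No gene, CLRN1 included, could therefore be followed, and the genotype labels were not checked.

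Bipolar cells are the interneurons that carry the photoreceptor signal across the retina. Their dendrites receive glutamate from rods and cones, their cell bodies lie in the inner nuclear layer beside those of horizontal cells, amacrine cells and Müller glia, and their axons drive amacrine and ganglion cells. ON types depolarise when light increases and use the metabotropic receptor mGluR6 and the channel TRPM1, while OFF types use ionotropic glutamate receptors. Rod bipolar cells are an ON type that collects mainly from rods. CLRN1 encodes clarin-1, a membrane protein, and people who lack it have Usher syndrome, with loss of hearing and sight.

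Depth was counted in unique molecular identifiers (UMIs), each taken as 1 captured transcript. There were 8233524 UMIs in the 3058 knockout nuclei and 6916018 in the 3484 wild-type nuclei. Bipolar nuclei contributed 234335 UMIs in the knockout library and 309388 in the wild-type library. A single bipolar nucleus had between 597 and 12461 UMIs in the knockout library and between 502 and 7119 in the wild-type library. The libraries shared 5 cell barcodes, and 1 of them belongs to a wild-type bipolar nucleus of 2671 UMIs whose knockout counterpart is a rod nucleus of 4903 UMIs.

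Bipolar nuclei made up 2.62% of the knockout library (80 of 3058, interval 2.08 to 3.25%) and 4.08% of the wild-type library (142 of 3484, interval 3.44 to 4.79%). The ratio of the shares was 0.642, and the intervals did not overlap. Among nuclei other than rods the bipolar share was 8.01% in the knockout library and 11.4% in the wild-type library, with overlapping intervals. The lower share in the knockout library was also seen against other neurons of the inner retina. Bipolar nuclei were 45.2% of bipolar and horizontal nuclei together in the knockout library and 62.8% in the wild-type library, and 31.3% of bipolar and ganglion cell nuclei in the knockout library, against 49.0% in the wild-type library. Neither of these pairs of intervals overlapped. The shares of bipolar among bipolar and cone nuclei (39.4% knockout, 43.8% wild-type), bipolar and amacrine nuclei (14.6% knockout, 20.2% wild-type) and bipolar and Müller glia nuclei (59.7% knockout, 52.0% wild-type) had overlapping intervals.

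The share varied with depth. Among nuclei of 1000 to 2000 UMIs, 2.87% were bipolar in the knockout library (interval 1.76 to 4.40%) and 6.66% in the wild-type library (5.11 to 8.51%). Below 1000 UMIs the share was 0.485% in the knockout library and 0.944% in the wild-type library, from 2000 to 4000 UMIs it was 6.00% in the knockout library and 7.91% in the wild-type library, and at 4000 UMIs or more it was 1.95% in the knockout library and 2.53% in the wild-type library. The knockout share was the lower one in all 4 ranges, and the intervals were apart only between 1000 and 2000 UMIs.

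In the authors' 2-dimensional embedding, 219 of the 222 nuclei formed a single body when nuclei up to 1 unit apart were joined, with 79 nuclei from the knockout and 140 from the wild-type library. Within this body the density of nuclei dropped at 2 places along the first coordinate, at -3 and -1.7. Cutting there gave a left part of 82 nuclei, a middle part of 89 and a right part of 48. Both cuts were placed after the embedding had been seen. Only 4 and 3 nuclei lay within 0.1 units of them, but 49 lay within 0.25 units of the cut at -1.7, so the middle and right parts are close neighbours. The authors' annotation gives no bipolar subtypes, and the 3 parts are not named as such here.

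**Figure D1:**
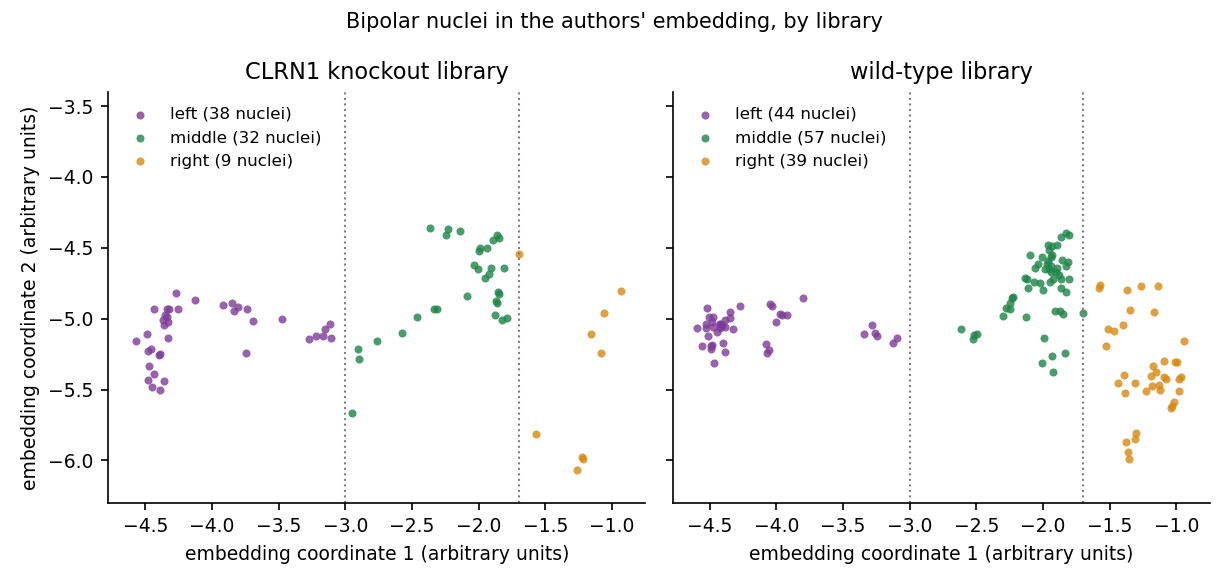
Bipolar nuclei in the authors' embedding, both axes in arbitrary units, with the CLRN1 knockout library on the left and the wild-type library on the right, coloured by left, middle and right part; the dotted lines are the cuts, and the 3 nuclei outside the body are not drawn. The right part holds 9 of 80 knockout nuclei and 39 of 142 wild-type nuclei.

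The right part took up less of the bipolar nuclei in the knockout library than in the wild-type library. It held 11.3% of them in the knockout library (9 of 80, interval 5.28 to 20.3%) and 27.5% in the wild-type library (39 of 142, 20.3 to 35.6%). As a share of all nuclei it was 0.294% in the knockout library (0.135 to 0.558%) and 1.12% in the wild-type library (0.797 to 1.53%), a log2 ratio of -1.93. Neither pair of intervals overlapped, but the first pair nearly met, with a bound of 20.3% in both libraries after rounding. The left part held 47.5% of bipolar nuclei in the knockout library (38 of 80) and 31.0% in the wild-type library (44 of 142), with overlapping intervals. The middle part held 40.0% in the knockout library (32 of 80) and 40.1% in the wild-type library (57 of 142).

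Outside the right part, bipolar nuclei were 2.32% of the knockout library (71 of 3058, interval 1.82 to 2.92%) and 2.96% of the wild-type library (103 of 3484, 2.42 to 3.57%), and these intervals overlapped. The log2 ratio of the bipolar shares was -0.64 with the right part and -0.35 without it. The right part had the lowest ratio of the 3 parts, so leaving it out had to make the difference smaller. The direction stayed the same. The left part alone was 1.24% of all nuclei in the knockout library and 1.26% in the wild-type library. The middle part was 1.05% in the knockout library and 1.64% in the wild-type library, with overlapping intervals.

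Because knockout nuclei were deeper, nuclei of the libraries were also matched 1 to 1 on UMIs within 10%. This gave 74 pairs, which left 6 knockout nuclei, all of 3711 UMIs or more, and 68 wild-type nuclei unpaired. Among matched nuclei the right part held 9.46% in the knockout library (7 of 74, interval 3.89 to 18.5%) and 29.7% in the wild-type library (22 of 74, 19.7 to 41.5%). The left part held 51.4% of matched nuclei in the knockout library (39.4 to 63.1%) and 23.0% in the wild-type library (14.0 to 34.2%). Neither pair of intervals overlapped in matched nuclei. Matching left out 68 wild-type nuclei, and wild-type left nuclei were the shallowest of the parts, with a median of 1542 UMIs. Wild-type medians were 2317 UMIs in the middle part and 1912 in the right part, and the knockout left median was 2656.5. Without matching the intervals of the left part overlapped, and its share of all nuclei had a log2 ratio of -0.02. The body was also divided in other ways. Ward linkage into 3 parts put 8 knockout and 39 wild-type nuclei in the right part. Single linkage at 0.2 units left 3 knockout and 32 wild-type nuclei there, with a median cone score of 0.12. It set apart 9 other nuclei, 4 knockout and 5 wild-type, with a median cone score of 1.00 and a median of 4429 UMIs.

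The 9 scores deposited per nucleus, 8 of them named for other retinal cell types, served to describe the parts. Each is named for a cell type, and its column name has the form that Seurat gives to the mean level of a gene list less that of control genes. The gene lists were not used here. The clusters and embedding rest on the same transcripts, so the scores describe the bipolar nuclei and are no independent check of their name. A bipolar score above 0.1 was reached by 76 of 80 knockout nuclei and 133 of 142 wild-type nuclei. At matched UMIs the median bipolar score of bipolar nuclei exceeded that of amacrine nuclei by 0.97 in the knockout library and 0.91 in the wild-type library. Against horizontal cells the excess was 1.01 in the knockout library and 0.94 in the wild-type library, and against rods 0.82 in the knockout library and 0.81 in the wild-type library.

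The 3 parts differed in their scores. The middle part had the highest median bipolar score, 0.98 (interval 0.90 to 1.19), against 0.57 (0.47 to 0.66) in the left part and 0.42 (0.29 to 0.54) in the right part. The right part had the highest rod score, with a median of 0.88 (0.76 to 1.01), while the left part had 0.21 and the middle part 0.20. Its median cone score was 0.21 (-0.10 to 0.49), and that of the left part was -0.17 and of the middle part -0.18. Nuclei of the right part thus had higher rod and cone scores and lower bipolar scores than those of the middle part. These values pool the libraries, and 39 of the 48 right nuclei are wild-type. By library, the right part's median cone score was -0.06 in knockout nuclei and 0.24 in wild-type nuclei. That of the middle part was -0.21 in knockout and -0.17 in wild-type nuclei. In 38 pairs of right and middle nuclei matched on UMIs, medians in the right part were higher by 0.52 for the rod score and by 0.50 for the cone score, and its bipolar score differed by -0.68. None of these 3 pairs of intervals overlapped. The general photoreceptor score went the other way in the same pairs, with a median of -0.19 in the right part and 0.00 in the middle part, and its intervals overlapped. In 66 matched pairs of left and middle nuclei, the bipolar score of the left part differed by -0.37, again with intervals apart, while the rod score had a median of 0.18 in both parts. Both sets of matched pairs pool the libraries. The parts were cut in an embedding that rests on the same transcripts as the scores. Score differences between parts are thus no independent check of the division.

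**Figure D2:**
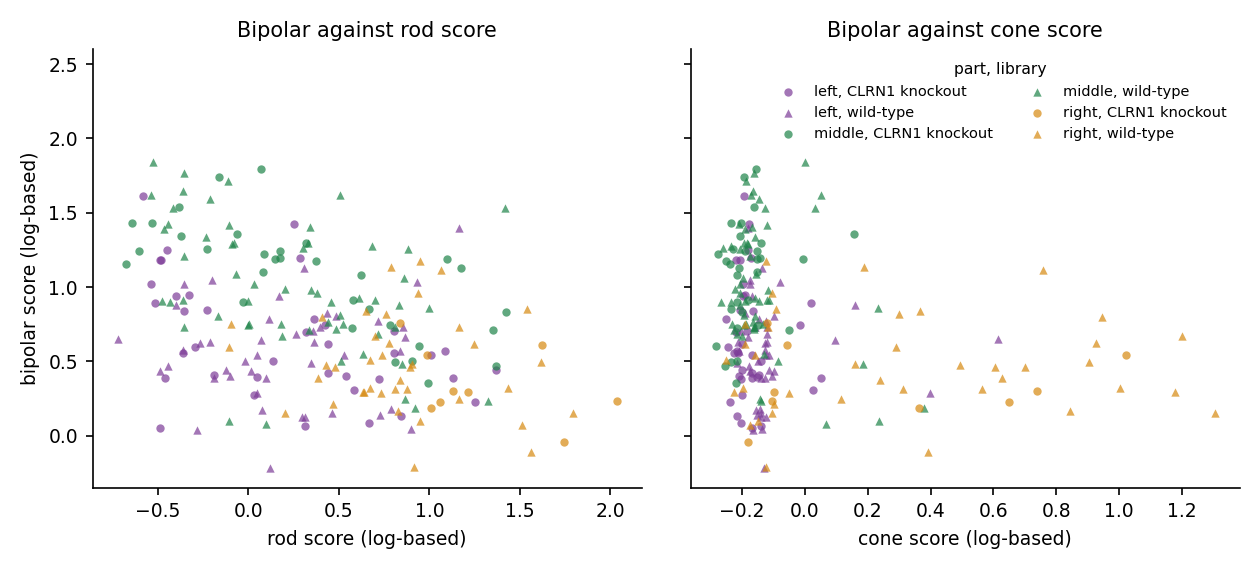
Bipolar score of each nucleus in the 3 parts (log-based, no unit) against its rod score (left panel) and cone score (right panel), coloured by part, with circles for the CLRN1 knockout and triangles for the wild-type library. Nuclei with high cone scores are mostly right-part nuclei of the wild-type library, and most left-part and middle-part nuclei lie below a cone score of 0.1.

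Across bipolar nuclei the bipolar score was lower where the rod score was higher. Spearman's rho was -0.54 over the 80 knockout nuclei and -0.27 over the 142 wild-type nuclei, where nuclei of a library share its depth and its free RNA. Within the parts it was -0.23 over 82 left nuclei, -0.55 over 89 middle nuclei and -0.22 over 48 right nuclei. The relation was negative in each part, and it was strongest in the middle one. The bipolar score itself had little relation to depth in the knockout library, with a rho to UMIs of 0.04. In the wild-type library it rose weakly with depth, with a rho of 0.22.

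A cone score above 0.1 was less frequent among bipolar nuclei of the knockout library. It was found in 5 of 80 knockout nuclei (6.25%, interval 2.06 to 14.0%) and in 30 of 142 wild-type nuclei (21.1%, 14.7 to 28.8%). In matched nuclei it was found in 3 of 74 in the knockout library (4.05%, 0.844 to 11.4%) and in 18 of 74 in the wild-type library (24.3%, 15.1 to 35.7%). The limit of 0.1 was chosen after seeing the scores, and 1 knockout nucleus and 3 wild-type nuclei lay within 0.05 of it. The intervals overlapped at limits of 0.2 (a difference of -12.6 percentage points) and 0.5 (-6.11 points), and also among nuclei of 2000 or more UMIs (-18.8 points), with the knockout share lower each time. The nuclei above 0.1 sat mainly in the right part, in 4 of its 9 knockout nuclei and 23 of its 39 wild-type nuclei. Outside it the score was passed by 1 of 71 knockout nuclei (1.41%) and 7 of 103 wild-type nuclei (6.80%), with overlapping intervals.

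Scores of the same kind in other types show how often nuclei of another identity passed the limit, without matching on depth. A cone score above 0.1 occurred in 2.56% of amacrine nuclei in the knockout library and 5.36% in the wild-type library, and in 11.1% of Müller glia nuclei in the knockout library and 14.5% in the wild-type library. In rods it was 17.6% in the knockout library and 15.7% in the wild-type library. In cones themselves it was 98.4% in the knockout library and 98.9% in the wild-type library. In the right part the rod score was at least 0.84 in knockout nuclei, and its lower quartile was 0.65 in wild-type nuclei. Most nuclei of this part therefore passed 0.1 on the rod score, whatever their cone score. Both scores passed 0.1 in 4 of all 9 right-part nuclei of the knockout library and 22 of all 39 of the wild-type library. Whether such nuclei are doublets of bipolar and photoreceptor nuclei, or carry free photoreceptor RNA, was not tested.

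Medians of most scores lay close together in the libraries once depth was matched. The median bipolar score was 0.74 (interval 0.56 to 0.90) in the knockout library and 0.70 (0.60 to 0.76) in the wild-type library, and in matched nuclei it was 0.74 in the knockout library and 0.72 in the wild-type library. It ran from -0.04 to 1.80 in the knockout library and from -0.21 to 1.84 in the wild-type library. A score above 1 was found in 27 of 80 knockout nuclei (33.8%) and 32 of 142 wild-type nuclei (22.5%). The ranges thus covered each other almost wholly, and the intervals of the medians overlapped. In matched nuclei the median rod score was 0.33 in the knockout library and 0.34 in the wild-type library, and the general photoreceptor score -0.31 in the knockout library and -0.24 in the wild-type library. The matched median cone score was -0.19 in the knockout library and -0.16 in the wild-type library, with overlapping intervals. Its matched mean differed by -0.16, knockout minus wild-type. Without matching, the median intervals of the cone, amacrine and ganglion cell scores were apart.

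**Figure D3:**
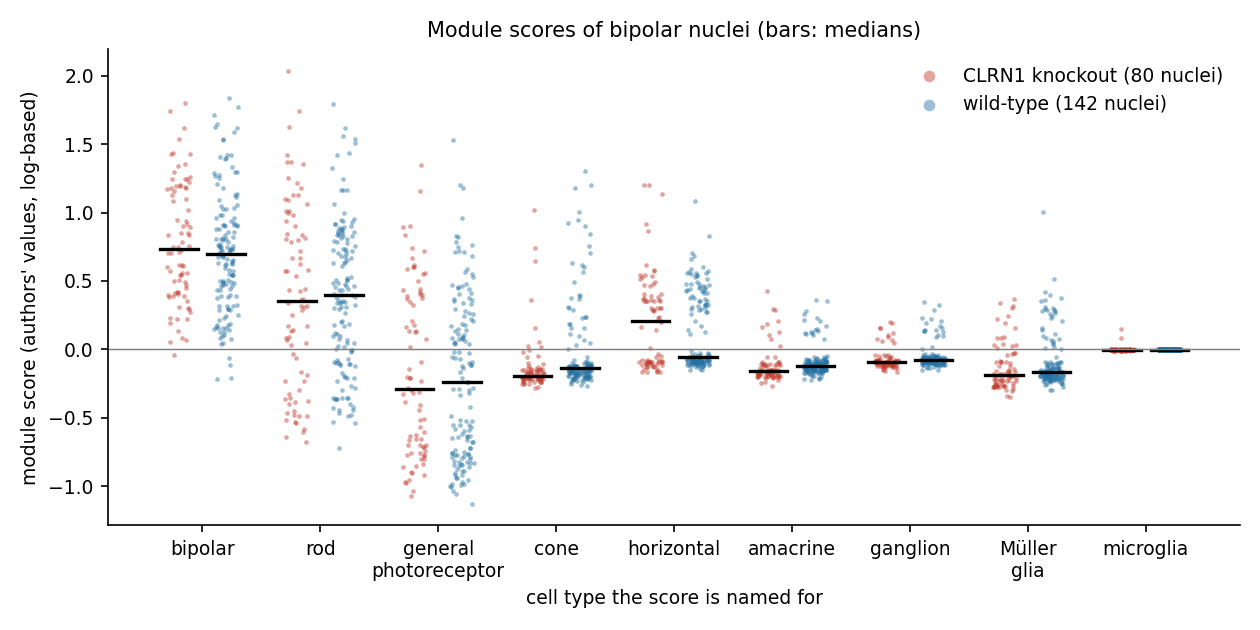
The deposited scores of bipolar nuclei (log-based, no unit), with 1 point per nucleus and the median as a bar, and the CLRN1 knockout library left of the wild-type library for each score. The bipolar score has the highest median in both libraries, 0.74 in the knockout and 0.70 in the wild-type library, followed by the rod score.

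The amacrine score was the only one of the 9 whose median intervals did not overlap in matched nuclei. Its median was -0.16 in the knockout library and -0.14 in the wild-type library, a difference of -0.02. With matching within 5% of UMIs the difference was also -0.02, and the intervals overlapped. This score was tied to depth, with a rho to UMIs of -0.68 over knockout nuclei and -0.61 over wild-type nuclei. The median ganglion cell score was -0.09 in the knockout library and -0.08 in the wild-type library in matched nuclei, and the Müller glia score -0.19 in the knockout library and -0.18 in the wild-type library. Microglia scores lay at about 0, and the highest was 0.15 in 1 knockout nucleus. The medians of the amacrine, ganglion cell and Müller glia scores were thus below 0 in both libraries.

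The horizontal cell score had a median of 0.20 in the knockout library and -0.055 in the wild-type library. In matched nuclei this score had medians of 0.20 in the knockout and 0.13 in the wild-type library, and both pairs of intervals overlapped. It passed 0.1 in 43 of 80 knockout nuclei (53.8%, interval 42.2 to 65.0%) and in 59 of 142 wild-type nuclei (41.5%, 33.3 to 50.1%), and in matched nuclei in 54.1% in the knockout library and 51.4% in the wild-type library. Among horizontal cells themselves it was 79.4% in the knockout library and 61.9% in the wild-type library. Among amacrine nuclei it was 21.3% in the knockout library and 15.5% in the wild-type library, and among rods 8.69% in the knockout library and 7.42% in the wild-type library. Without matching on depth, bipolar nuclei thus passed the limit more often than rods and amacrine nuclei of the same library. By part it was passed in 21 of 38 knockout and 17 of 44 wild-type left nuclei, in 22 of 32 knockout and 28 of 57 wild-type middle nuclei, and in 0 of 9 knockout and 12 of 39 wild-type right nuclei.

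The bipolar score was the highest of the 9 in 42 of 80 knockout nuclei (52.5%) and 78 of 142 wild-type nuclei (54.9%). The rod score was highest in 29 knockout nuclei (36.3%) and 32 wild-type nuclei (22.5%), and the cone score in 1 knockout nucleus and 12 wild-type nuclei. Rods were the most frequent nuclei, 2059 in the knockout and 2237 in the wild-type library, and the median rod score of bipolar nuclei at matched UMIs was above that of amacrine, horizontal, ganglion cell and Müller glia nuclei in both. It was 0.34 in knockout bipolar nuclei and -0.25 in knockout amacrine nuclei, and 0.40 in wild-type bipolar nuclei and 0.01 in wild-type amacrine nuclei. Horizontal cells had medians of -0.35 in the knockout library and -0.10 in the wild-type library in the same kind of matching. Doublets and free rod RNA were not tested as a source of this score.

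The neighbours of bipolar nuclei in the embedding were mostly rods where they were not bipolar. Of the 15 nearest nuclei, 89.8% were bipolar, 9.49% rods and 0.691% amacrine, with no cone, horizontal, ganglion or Müller glia nucleus among them. Most of these rods belonged to the authors' rod cluster 2, a group of 813 rod nuclei with a median of 4798 UMIs in the knockout and 3190.5 UMIs in the wild-type library, which gave 7.30% of all neighbours. It gave 11.1% of neighbours around the left part, 4.04% around the middle part and 6.39% around the right part. Rod cluster 2 did not carry the bipolar score: at matched UMIs its median was -0.04 in the knockout library, against 0.74 in knockout bipolar nuclei. In the wild-type library it was -0.03, against 0.71 in bipolar nuclei. A bipolar score above 0.5 was still found in 34 of 437 knockout nuclei of rod cluster 2 (7.78%) and 21 of 376 wild-type nuclei (5.59%).

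Counting nuclei of all types by score, in place of the label, brought the libraries closer. Nuclei of any type with a bipolar score above 0.5 were 3.24% of the knockout library (99 nuclei, interval 2.64 to 3.93%) and 3.59% of the wild-type library (125 nuclei, 3.00 to 4.26%), a log2 ratio of -0.15. Of these nuclei, 44 in the knockout library and 32 in the wild-type library were not called bipolar by the authors. With only nuclei that the authors call bipolar, the same limit gave a log2 ratio of -0.57, against -0.64 without a limit. The smaller difference thus came with the nuclei of other labels, and depth was not matched in these counts. Within bipolar nuclei the limit of 0.5 had 6 knockout nuclei and 14 wild-type nuclei within 0.05 of it.

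Bipolar nuclei of the knockout library contained more UMIs. The median was 2725.5 UMIs per nucleus in the knockout library (interval 2372 to 3084) and 1941 in the wild-type library (1802 to 2223), a 1.40-fold difference. The median number of detected genes was 1424 in the knockout library and 1112 in the wild-type library, 1.28-fold apart. At least 2000 UMIs were found in 68.8% of knockout nuclei and 48.6% of wild-type nuclei. The same direction was seen in other types. Median UMIs were 3217 in knockout and 2522.5 in wild-type amacrine nuclei, 2144 in knockout and 1412 in wild-type cones, and 1067 in knockout and 869 in wild-type rods. Ganglion cells were the other way round, with 4772 in the knockout library and 5415 in the wild-type library. The bipolar difference is thus shared with other types, and library depth and RNA per nucleus cannot be told apart.

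**Figure D4:**
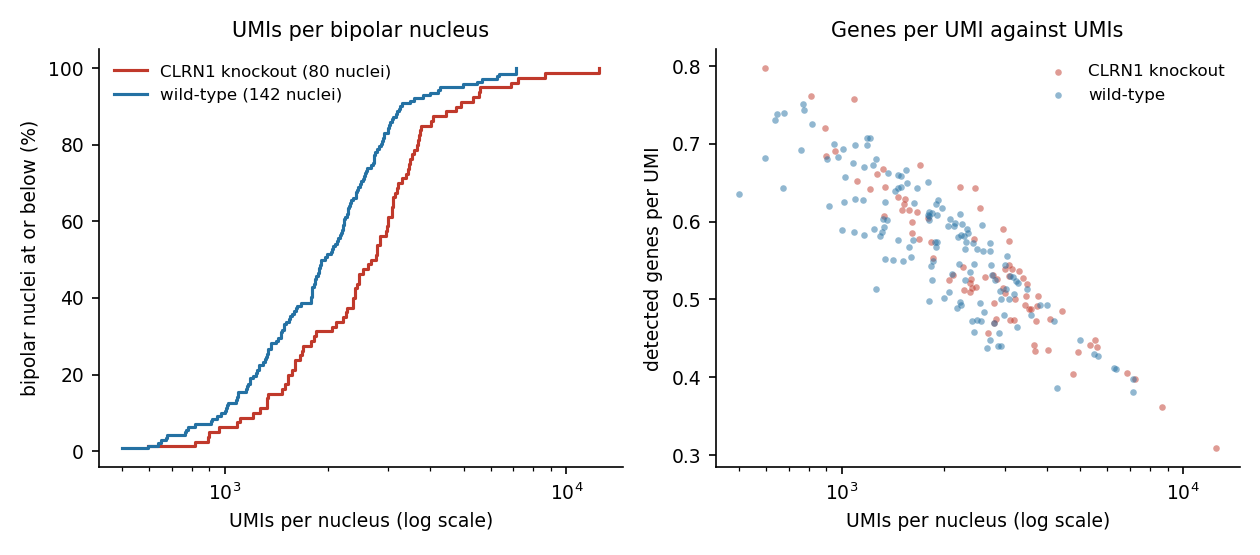
Left panel, cumulative percent of bipolar nuclei at or below each number of UMIs; right panel, detected genes per UMI against UMIs with 1 point per nucleus; UMI axes are on a log scale, and red is the CLRN1 knockout and blue the wild-type library. The median is 2725.5 UMIs in the knockout library and 1941 in the wild-type library, and in the right panel the points of the libraries overlie each other.

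By part, median UMIs were 2656.5 in knockout and 1542 in wild-type left nuclei, with intervals apart, and 2911 in knockout and 2317 in wild-type middle nuclei. In the right part medians were 1692 in the 9 knockout nuclei (interval 816 to 5534) and 1912 in the 39 wild-type nuclei (1492 to 2421), and 4000 UMIs or more were reached by 4 knockout and 3 wild-type nuclei. The few knockout nuclei there give no order. Genes per UMI, which falls with depth, had a median of 0.529 in the knockout library and 0.576 in the wild-type library. In matched nuclei it was 0.531 in the knockout library and 0.539 in the wild-type library, so that most of the difference was not seen at equal depth. Its rho to UMIs was -0.89 over knockout nuclei and -0.84 over wild-type nuclei.

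Bipolar nuclei of the knockout library carried a larger mitochondrial share. The median was 0.213% of UMIs in the knockout library (interval 0.150 to 0.324%) and 0.0847% in the wild-type library (0.0573 to 0.112%). Matching on UMIs left it at 0.221% in the knockout library and 0.0955% in the wild-type library, again with intervals apart. Without the right part the matched medians differed by 0.115 percentage points and the intervals overlapped. At 4000 UMIs or more the order was the opposite, with 0.0953% in 12 knockout nuclei and 0.140% in 9 wild-type nuclei. Over all bipolar nuclei together, 887 UMIs (0.379%) were mitochondrial in the knockout library and 559 (0.181%) in the wild-type library. Mitochondrial transcripts are made outside the nucleus, and a percent of this size rests on a few UMIs per nucleus.

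More than 0.5% mitochondrial UMIs was found in 21 of 80 knockout nuclei (26.3%, interval 17.0 to 37.3%) and in 10 of 142 wild-type nuclei (7.04%, 3.43 to 12.6%). In matched nuclei the shares were 27.0% in the knockout library (17.4 to 38.6%) and 8.11% in the wild-type library (3.03 to 16.8%). The limit planned as the main one was 1%, and 0.5% was an alternative. Above 1% there were 9 knockout nuclei (11.3%) and 4 wild-type nuclei (2.82%), and these intervals overlapped. They also overlapped above 1% in matched nuclei (a difference of 5.41 percentage points) and above 2% in all bipolar nuclei (3.75 points). The share above 0.5% was higher in the knockout library in all 3 parts, with overlapping intervals in each. It was 8 of 38 knockout and 1 of 44 wild-type nuclei in the left part, 10 of 32 knockout and 4 of 57 wild-type nuclei in the middle part, and 3 of 9 knockout and 5 of 39 wild-type nuclei in the right part.

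**Figure D5:**
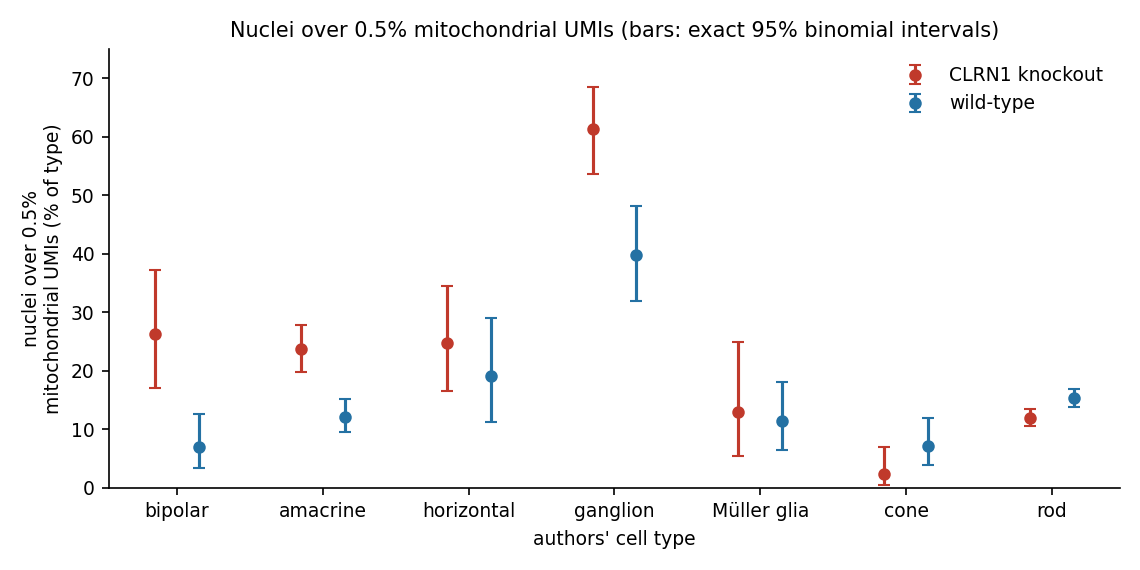
Percent of nuclei with more than 0.5% mitochondrial UMIs in each of the authors' cell types, with exact 95% counting intervals as bars, and the CLRN1 knockout library (red) left of the wild-type library (blue). In bipolar cells 26.3% of knockout and 7.04% of wild-type nuclei are above 0.5%, while in rods and cones the order is the opposite.

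In other types the same limit was passed by 23.7% of knockout and 12.1% of wild-type amacrine nuclei, by 61.4% of knockout and 39.9% of wild-type ganglion cell nuclei, and by 12.0% of knockout and 15.3% of wild-type rods. None of these 3 pairs of intervals overlapped, and rods had the opposite order to the other 2 types. After matching on UMIs, amacrine nuclei kept a higher share in the knockout library (23.5%, against 13.1% in the wild-type library), and rods no longer had intervals apart (12.6% in the knockout and 14.1% in the wild-type library). In ganglion cells matching gave 44.3% in the knockout library and 48.5% in the wild-type library. Horizontal cells had 24.7% in the knockout library and 19.0% in the wild-type library, and Müller glia 13.0% in the knockout library and 11.5% in the wild-type library, both with overlapping intervals. Cones, like rods, had the lower share in the knockout library (2.44%, against 7.14% in the wild-type library), with overlapping intervals. The difference between the libraries thus had no common direction over the cell types.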

How the data were processed

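Single nuclei were profiled with 10x Genomics 3' chemistry, per the labels' protocols. Cell Ranger 7.0, Seurat 4.3.0 and the build OryCun2.0 appear in the submitters' processing notes, without roles. Whether nuclei were filtered, doublets removed or libraries integrated was not given in the sources used here. As deposited by the authors, the files hold UMI counts and detected genes per nucleus as whole-number counts, the mitochondrial share as a percent of UMIs, module scores without gene lists, and embedding coordinates (a score without unit). Library, cluster and cell type of each nucleus were taken as deposited. The deposited count matrix was not used, since its rows and columns carry numbers in place of gene and nucleus names; by the rule for naming genes none was therefore named, and no sequence is shown.

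Shares have exact Clopper-Pearson intervals at 95%, medians have order-statistic intervals at 95%, and log2 ratios are knockout over wild-type. "Apart" means that intervals do not overlap; overlapping intervals do not show that values are equal. Nuclei could not be thinned, so depth was equalised by 1 to 1 matching on UMIs within 10%, with the largest number of pairs. Parts came from single linkage at 1 unit and cuts at -3 and -1.7 on the first coordinate. No doublet caller was run. The nuclei, score limits and cuts were chosen with earlier results of these data known. Alternatives changed the matching width, UMI and mitochondrial limits, linkage and neighbour number. Computations used Python 3.11.15, numpy 2.4.6, pandas 2.3.3, SciPy 1.17.1 and matplotlib 3.10.9.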

Additional observations from a re-analysis of the deposited data

Results flagged for a closer look

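The share of nuclei with more than 0.5% mitochondrial UMIs differed between the libraries in opposite directions in 2 cell types. In bipolar cells it was 26.3% in the knockout library and 7.04% in the wild-type library, a difference of 19.2 percentage points. In rods it was 12.0% in the knockout library and 15.3% in the wild-type library, a difference of -3.34 percentage points. At the 0.5% limit the counting intervals of the libraries did not overlap in either type. At 1%, the limit planned as the main one, the bipolar intervals overlapped. The difference between the types was not tested, since each genotype has 1 library. After matching on UMIs the bipolar shares above 0.5% were 27.0% in the knockout library and 8.11% in the wild-type library. The matched rod shares were 12.6% in the knockout library and 14.1% in the wild-type library, with overlapping intervals in rods.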

How the results depend on the processing

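No paired analysis was possible because each genotype has 1 library. The log2 ratio of the bipolar share kept its sign in 7 of 7 alternatives, from -0.79 (1000 or more UMIs) to -0.15 (any type with a bipolar score above 0.5), with intervals apart in 3. The log2 ratio of UMIs ran from 0.39 to 0.53 in 6 alternatives, all apart. The bipolar score difference was positive in 6 of 9 alternatives and ran from -0.12 to 0.06. Genes per UMI differed by -0.0471 when nuclei were not matched, against -0.00763 when matched. The share above 1% mitochondrial UMIs differed by 8.43 points with overlapping intervals. That above 0.5% outside the right part differed by 20.5 points with intervals apart. The right part's share differed by -20.3 to -16.4 points in 7 alternatives, 6 of them apart; from 2000 UMIs it was 7.27% in the knockout library and 27.5% in the wild-type library, with overlapping intervals. The left part's share differed by 10.7 to 34.6 points in 6, 3 of them apart. Joining at 0.2 units gave a largest body of 89 nuclei, against 219 at 1 unit. Bipolar nuclei were 91.3% of the 5 nearest and 87.8% of the 50 nearest nuclei. The cause of these shifts was not tested. The 80 knockout nuclei, 9 of them in the right part, limit the precision of every share.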

Other observations

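The library of neighbouring bipolar nuclei was counted in the embedding. Among the bipolar neighbours within the 15 nearest nuclei, 40.7% were knockout nuclei around knockout bipolar nuclei and 27.5% around wild-type bipolar nuclei, where knockout nuclei are 36.0% of all bipolar nuclei. With the 50 nearest nuclei the values were 34.8% around knockout nuclei and 31.4% around wild-type nuclei, both below 36.0%. All 15 neighbours were bipolar for 89 nuclei, 21 of them knockout and 68 wild-type.

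Outside the main body lay 3 bipolar nuclei. A knockout nucleus of 1085 UMIs had 13 of its 15 nearest nuclei in amacrine cluster 22 and a bipolar score of 0.42, its highest score. A wild-type nucleus of 2337 UMIs lay by amacrine cluster 12, with a bipolar score of -0.07 and a horizontal cell score of 0.30. Another wild-type nucleus, of 778 UMIs, was surrounded by rods of cluster 1, and its horizontal cell score was 0.58 and its bipolar score 0.15.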
